A study of Mus musculus with 12 samples.

Results

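The macrophage gene module holds 38 genes known from macrophages, chosen by name with earlier results of these data known. They were read from every library of a mouse reprogramming series. All 38 were found in the deposited table of 40384 genes, and all 38 were among the 17114 genes tested. The series has 12 RNA-seq libraries in 4 groups, with n = 3 each. MEF are mouse embryonic fibroblasts from male mid-gestation embryos homozygous for 4F2A, cells known for a doxycycline-inducible set of the reprogramming factors Oct4, Sox2, Klf4 and Myc. D4 are 4F2A cultures at day 4 of reprogramming that carry the control of the overexpression (OE-NC). D4_DUX are 4F2A cultures at day 4 whose label is overexpression of Dux (OE-DUX) for 48 h. The iPSC group holds induced pluripotent stem cells, with no time or treatment in the labels. Per the labels' protocols, culture used LIF at 1000 U/mL and doxycycline at 2 μg/mL, in a text that every sample shares, MEF included. The labels do not say whether the libraries of a group come from separate cultures, so the p-values measure only the spread between these libraries.

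Macrophages are phagocytes of the innate immune system. They depend on the receptor Csf1r, which binds the growth factors Csf1 and Il34, and their genes are switched on by the transcription factor PU.1, the product of Spi1. Several Fc receptors and lectin-like receptors signal through small adaptor proteins, such as Fcer1g and Tyrobp, and the cells are a main source of complement C1q and of lysozyme. Embryos contain macrophages, and fibroblast cultures made from whole embryonic tissue can carry some of them along. In bulk RNA, fewer cells of a type and less RNA per cell cannot be told apart.

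Values are FPKM, fragments per kilobase of gene length, scaled to the size of the library. Recovered from these values, the libraries held 22550000 to 28150000 fragments, and their FPKM summed to 305025 to 316995. A floor of 3 fragments marks the level below which a value cannot be read. Duxf3, the annotated Dux gene, stayed below that floor in all 12 libraries and had 0 fragments in the libraries labelled D4_DUX. The label is thus not borne out by that gene. The overexpressed sequence may not be counted under that gene ID, so these values cannot refute the label either. D4_DUX stands here for the libraries so labelled. Fibroblast identity genes summed to 6676 to 6869 FPKM in MEF and pluripotency genes to 1206 to 1347 FPKM in iPSC, against 0.827 FPKM or less in the other 9 libraries.

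The 38 genes were at their highest in MEF, fell at day 4, and were lowest in the libraries labelled D4_DUX. Their summed level was 2103 ± 30.8 FPKM in MEF (SD, n = 3), 298 ± 26.8 in D4, 83.0 ± 3.06 in D4_DUX and 253 ± 27.6 in iPSC. The groups MEF, D4 and D4_DUX did not overlap in this sum, and the iPSC libraries, at 225 to 279.7 FPKM, lay across the lower end of the D4 range of 275 to 328. MEF held the highest mean for 36 of the 38 genes, with Laptm5 highest in iPSC and Gpnmb highest in D4_DUX. The lowest mean was in D4_DUX for 34 genes and in iPSC for 4. The median gene was at 13.9 FPKM in MEF, 2.65 in D4, 0.524 in D4_DUX and 1.5 in iPSC.

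A gene was called at an adjusted p under 0.05 in limma, with Benjamini-Hochberg adjustment over all 17114 genes. The scale was log2(FPKM + 1), on which the changes of low genes are understated. Against MEF, 38 of 38 genes fell in D4, where 27.6% of all genes tested were lower. In the libraries labelled D4_DUX 35 of 38 fell against D4 and 1, Gpnmb, rose, where 15.4% of all genes were lower and 20.1% higher. In iPSC 37 of 38 fell against MEF and 1, Laptm5, rose, where 31.2% of all genes were lower and 51% higher. The median log2 fold change of the 38 genes was -2.04, -0.84 and -2.31 in these comparisons, beside 0.03, 0.02 and 0.21 over all genes tested. The first comparison shares the D4 libraries with the second and the MEF libraries with the third. The groups did not overlap, in the lower direction, for 38, 35 and 37 genes, beside 29.8%, 21.9% and 31.3% of all genes tested. A total of 35 genes ran MEF above D4 above D4_DUX with no overlap between neighbouring groups, an order that 9.52% of all genes tested had. Because the genes were chosen with earlier results of these data known, these shares give scale and do not test the set.

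The filter asked for 1 FPKM in at least 3 libraries, and 12 genes passed it only with the help of MEF: Spi1, Cx3cr1, Fcgr1, Fcgr2b, Trem2, Mrc1, Ptprc, Cd84, Aif1, Coro1a, Ms4a6c and Pld4. Such genes had to be lower elsewhere. The other 26 gave 26 lower in D4 against MEF, 25 lower and 1 higher in D4_DUX against D4, and 25 lower and 1 higher in iPSC against MEF. Without any filter 38, 32 and 37 genes were called lower.

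**Figure D1:**
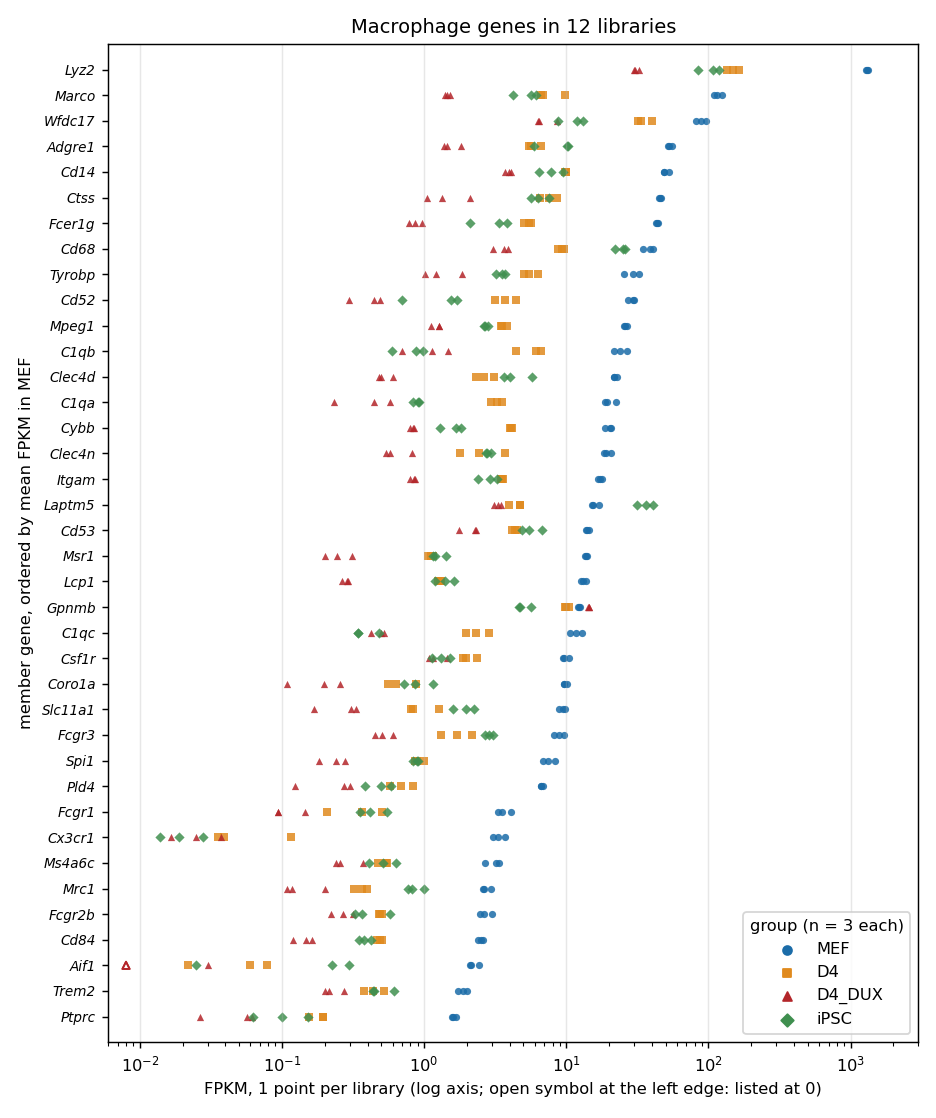
FPKM of the 38 macrophage genes in each of the 12 libraries, on a log axis, with genes ordered by their mean in MEF and 1 point per library, coloured by group (n = 3 each). The MEF points lie to the right of the D4 points for all 38 genes, and the mean of D4_DUX is the lowest for all but Cx3cr1, C1qb, C1qc and Gpnmb, which are lowest in iPSC.

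Promoters are shown for the 4 members whose windows held the longer of 2 PU.1-type motifs, and for Laptm5 and Gpnmb, which each rose in 1 comparison. RefSeq promoters of GRCm38.p6 were given for 29 of the 38 genes, in 33 windows from 250 bases before to 50 after the start. The core GAGGAAGT, searched on both strands, was in 4 windows, those of C1qc, Cd53, Ctss and Pld4, or 12.1% of 33, beside 3.20% of all 32851 windows. The shorter GAGGAAG, which the first motif contains, was in 14 of 33 windows (42.4%) of 13 genes, beside 13.6% of all windows. The sequences run 5′ to 3′ on the strand of the gene, from 200 bases before to 30 after the start, with the motif of either strand in capitals.
C1qc (chr4:136892885-136893114, minus strand): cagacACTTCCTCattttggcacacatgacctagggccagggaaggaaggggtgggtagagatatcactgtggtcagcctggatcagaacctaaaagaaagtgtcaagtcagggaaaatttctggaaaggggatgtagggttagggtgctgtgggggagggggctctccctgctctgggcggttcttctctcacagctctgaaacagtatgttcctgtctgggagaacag
Cd53 (chr3:106790120-106790349, minus strand): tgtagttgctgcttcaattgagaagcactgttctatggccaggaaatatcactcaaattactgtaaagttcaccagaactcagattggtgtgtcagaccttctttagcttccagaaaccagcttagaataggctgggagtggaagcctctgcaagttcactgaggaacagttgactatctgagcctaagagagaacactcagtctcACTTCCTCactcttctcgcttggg
Ctss (chr3:95526586-95526815, plus strand): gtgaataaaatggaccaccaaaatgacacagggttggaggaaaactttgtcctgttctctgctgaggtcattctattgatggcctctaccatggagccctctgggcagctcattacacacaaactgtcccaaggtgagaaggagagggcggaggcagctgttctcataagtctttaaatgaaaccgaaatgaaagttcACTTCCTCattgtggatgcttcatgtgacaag
Pld4 (chr12:112760455-112760684, plus strand): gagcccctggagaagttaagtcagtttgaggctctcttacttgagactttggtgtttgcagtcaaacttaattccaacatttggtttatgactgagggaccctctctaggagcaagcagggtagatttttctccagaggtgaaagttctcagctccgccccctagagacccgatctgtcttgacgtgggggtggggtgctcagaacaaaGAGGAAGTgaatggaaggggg
Laptm5 (chr4:130913116-130913345, plus strand): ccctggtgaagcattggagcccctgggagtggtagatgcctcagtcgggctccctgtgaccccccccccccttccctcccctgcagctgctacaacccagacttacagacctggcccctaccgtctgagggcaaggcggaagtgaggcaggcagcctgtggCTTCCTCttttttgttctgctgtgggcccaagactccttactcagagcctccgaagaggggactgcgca
Gpnmb (chr6:49036318-49036547, plus strand): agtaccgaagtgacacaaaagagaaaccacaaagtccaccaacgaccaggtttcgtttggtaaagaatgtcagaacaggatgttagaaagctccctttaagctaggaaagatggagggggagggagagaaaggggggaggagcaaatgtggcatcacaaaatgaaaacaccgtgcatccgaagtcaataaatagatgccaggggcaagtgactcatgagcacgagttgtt
In C1qc the motif begins 195 bases before the start, in Ctss 2 bases before it, in Cd53 at base 7 and in Pld4 at base 10 of the transcript. Laptm5 holds only the shorter form, 39 bases before the start, and the Gpnmb stretch holds neither. These 6 genes fell 4.93-, 3.22-, 6.02-, 9.57-, 3.54- and 1.23-fold from MEF to D4. A match describes the letters only.

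The 4 genes of lineage control and identity fell in all 3 comparisons, except Cx3cr1 from D4 to D4_DUX. Of all genes tested, 27.6% were lower in D4 against MEF, 15.4% in D4_DUX against D4 and 31.2% in iPSC against MEF. Csf1r, the receptor of the macrophage growth factors, was at 9.49, 9.59 and 10.50 FPKM in MEF, 2.35, 1.87 and 1.97 in D4, 1.16, 1.45 and 1.09 in D4_DUX and 1.32, 1.52 and 1.13 in iPSC. MEF stood clear of all other groups, and the D4_DUX and iPSC values overlapped. Csf1r fell in D4 (log2 fold change -1.83, SE 0.09, adjusted p = 5.98e-09) and again in D4_DUX (1.67-fold on mean FPKM, log2 fold change -0.45, SE 0.09, adjusted p = 0.00187). Spi1, which encodes PU.1 (ENSMUSG00000002111, chromosome 2, 91082390 to 91115756 in GRCm38), was at 6.88, 8.37 and 7.41 FPKM in MEF, 0.865, 0.896 and 0.992 in D4, 0.181, 0.242 and 0.279 in D4_DUX and 0.841, 0.900 and 0.897 in iPSC. The Spi1 values of D4 and iPSC overlapped, and those of D4_DUX lay below both (log2 fold change -0.64, SE 0.06, adjusted p = 3.28e-05).

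Adgre1, which encodes the surface antigen F4/80 (ENSMUSG00000004730, chromosome 17, 57358691 to 57483527), was among the 5 most abundant members in MEF. Its values were 53.0, 55.3 and 52.3 FPKM in MEF, 5.69, 6.68 and 5.47 in D4, 1.38, 1.83 and 1.45 in D4_DUX and 10.2, 10.2 and 5.94 in iPSC. Its fall of 9.004-fold from MEF to D4 was followed by 3.83-fold from D4 to D4_DUX, as ratios of mean FPKM. Cx3cr1, the receptor of the chemokine fractalkine (ENSMUSG00000052336, chromosome 9, 119901616 to 120069879), fell most in D4. It was at 3.05, 3.73 and 3.30 FPKM in MEF and 0.0394, 0.0358 and 0.116 in D4, a fall to 1.90% of its MEF level with an exact 95% counting interval of 1.18 to 2.95%, from 21 fragments in the 3 D4 libraries against 1123 in MEF. Such intervals cover counting error only. D4_DUX held 9 fragments and iPSC 7, and the change from D4 to D4_DUX did not pass the test (log2 fold change -0.05, SE 0.06, adjusted p = 0.553).

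Complement C1q is built from 3 chains, and its genes C1qa, C1qb and C1qc lie side by side on chromosome 4. C1qa (ENSMUSG00000036887, chromosome 4, 136895917 to 136898803) was at 19.5, 22.2 and 18.7 FPKM in MEF, 3.51, 3.25 and 2.98 in D4, 0.579, 0.233 and 0.442 in D4_DUX and 0.899, 0.837 and 0.915 in iPSC. C1qb was at 23.8, 26.8 and 21.7 FPKM in MEF, 6.10, 6.61 and 4.41 in D4, 1.47, 0.701 and 1.13 in D4_DUX and 0.974, 0.876 and 0.595 in iPSC. C1qc was at 10.6, 13.0 and 11.8 FPKM in MEF, 1.96, 2.88 and 2.33 in D4, 0.526, 0.424 and 0.498 in D4_DUX and 0.344, 0.483 and 0.345 in iPSC. All 3 chains fell in all 3 comparisons, with no overlap between the groups compared, beside 29.8%, 21.9% and 31.3% of all genes tested. From MEF to D4 they fell 4.22- to 6.20-fold, from D4 to D4_DUX 4.95- to 7.77-fold, and from MEF to iPSC 22.8- to 30.2-fold. C1qb had a log2 fold change of -3.79 in iPSC against MEF (SE 0.16, adjusted p = 5.16e-10).

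Fc receptors bind antibody. Fcer1g and Tyrobp are adaptors that supply ITAM motifs, tyrosine pairs used in signalling, to several receptors. Fcer1g (ENSMUSG00000058715, chromosome 1, 171229572 to 171234365) was at 44.1, 43.2 and 43.0 FPKM in MEF, 5.66, 5.49 and 5.07 in D4, 0.968, 0.788 and 0.860 in D4_DUX and 3.85, 3.34 and 2.11 in iPSC. Tyrobp, also known as DAP12 (ENSMUSG00000030579, chromosome 7, 30413760 to 30417585), was at 25.6, 29.4 and 32.2 FPKM in MEF, 5.02, 6.28 and 5.48 in D4, 1.02, 1.84 and 1.22 in D4_DUX and 3.71, 3.54 and 3.20 in iPSC. Both adaptors were separated without overlap in all 3 comparisons, and in both the iPSC libraries lay between D4 and D4_DUX. From D4 to D4_DUX Fcer1g fell 6.20-fold (log2 fold change -1.78, SE 0.13, adjusted p = 2.58e-06) and Tyrobp 4.12-fold (log2 fold change -1.49, SE 0.12, adjusted p = 7.74e-06).

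The other 6 genes of this group encode receptors, and all 6 fell in all 3 comparisons, beside 27.6%, 15.4% and 31.2% of all genes tested. Clec4d and Clec4n, C-type lectins of the fungal response, had means of 22.03 ± 0.603 and 19.5 ± 1.17 FPKM in MEF and 2.68 ± 0.381 and 2.63 ± 0.963 in D4. Trem2, a lipid-sensing receptor, was at 1.73, 1.88 and 2.02 FPKM in MEF, 0.377, 0.440 and 0.524 in D4, 0.213, 0.199 and 0.275 in D4_DUX and 0.609, 0.436 and 0.447 in iPSC. The Trem2 values of D4 and iPSC overlapped. Among the Fc receptors, Fcgr1, the high-affinity receptor, was at 3.63 ± 0.390 FPKM in MEF and 0.359 ± 0.150 in D4. Fcgr3 was at 8.94 ± 0.720 FPKM in MEF, 1.74 ± 0.432 in D4 and 2.86 ± 0.205 in iPSC. Fcgr2b, the inhibitory receptor, was at 2.70 ± 0.267 in MEF and 0.493 ± 0.0134 in D4. From D4 to D4_DUX all 6 fell again, Clec4d by 5.07-fold and Fcgr2b by 1.83-fold. In D4_DUX against D4 the calls of Fcgr1, Fcgr2b and Trem2 did not hold throughout: without D4 replicate 3 their adjusted p was 0.101, 0.0567 and 0.0576, and without D4_DUX replicate 2 it was 0.0724, 0.0888 and 0.0516. The calls of Fcgr1 and Fcgr2b were also lost without D4 replicate 2 (0.0668 and 0.0603), that of Fcgr1 without D4_DUX replicate 1 (0.0748), and that of Fcgr2b without D4 replicate 1 (0.0715) or D4_DUX replicate 3 (0.065). With no filter on low values, limma gave Fcgr1 and Fcgr2b an adjusted p of 0.0792 and 0.0788. With quantile normalization Fcgr2b had 0.0716.

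Scavenger receptors take up modified lipoproteins and microbes. Marco (ENSMUSG00000026390, chromosome 1, 120474538 to 120505024) was the second most abundant member in MEF and took the steepest fall among members above 5 FPKM in MEF. Its values were 114, 125 and 109 FPKM in MEF, 6.59, 9.76 and 6.85 in D4, 1.40, 1.52 and 1.44 in D4_DUX and 6.14, 5.65 and 4.20 in iPSC. From MEF to D4 Marco fell 15.0-fold (log2 fold change -3.76, SE 0.14, adjusted p = 7.34e-10), and D4_DUX lay below every other group. Msr1, the class A scavenger receptor, fell 12.4-fold, from 13.8 ± 0.254 to 1.11 ± 0.0408 FPKM. Cd14, the co-receptor for bacterial lipopolysaccharide, fell 5.06-fold, from 50.1 ± 2.36 to 9.90 ± 0.127 FPKM, and was at 3.91 ± 0.176 in D4_DUX. Mrc1, the mannose receptor, was at 2.72 ± 0.190 FPKM in MEF, 0.360 ± 0.0380 in D4, 0.142 ± 0.0509 in D4_DUX and 0.865 ± 0.119 in iPSC, so that its iPSC values exceeded those of both day 4 groups without overlap.

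Cd68, a glycoprotein of the lysosomal membrane and a common macrophage stain (ENSMUSG00000018774, chromosome 11, 69664213 to 69666153), differed from its peers in iPSC. It was at 38.8, 40.5 and 34.8 FPKM in MEF, 9.30, 9.71 and 8.78 in D4, 3.87, 3.67 and 3.04 in D4_DUX and 21.8, 25.0 and 25.8 in iPSC. The iPSC libraries lay between MEF and D4 without overlap, a fall of 1.57-fold from MEF (log2 fold change -0.63, SE 0.08, adjusted p = 2.13e-05).

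The 10 genes grouped as leukocyte surface and cytoskeleton all fell in D4, by 3.22- to 14.3-fold for the 9 other than Aif1, beside 27.6% of all genes tested. Of the 10, 9 fell again in D4_DUX, beside 15.4% of all genes tested. Ptprc, which encodes CD45 (ENSMUSG00000026395, chromosome 1, 138062861 to 138175708), was the lowest member in MEF, at 1.69, 1.57 and 1.59 FPKM, with 0.155, 0.195 and 0.195 in D4, 0.0565, 0.0264 and 0.0616 in D4_DUX and 0.153, 0.0996 and 0.0624 in iPSC. Its call in D4_DUX against D4 (adjusted p = 0.0147 in limma) was lost without D4_DUX replicate 2 (adjusted p = 0.0566). Cd52, a small lipid-anchored glycoprotein (ENSMUSG00000000682, chromosome 4, 134082448 to 134095082), was at 27.3, 29.8 and 29.6 FPKM in MEF, 3.17, 4.39 and 3.72 in D4, 0.444, 0.298 and 0.493 in D4_DUX and 1.69, 1.54 and 0.698 in iPSC. From D4 to D4_DUX it fell 9.14-fold, to 10.9% of the D4 level (counting interval 7.61 to 15.3%, 38 fragments against 324). Aif1, which encodes the calcium-binding protein IBA1, was at 2.11, 2.44 and 2.15 FPKM in MEF and 0.0217, 0.0591 and 0.0787 in D4, 253 against 6 fragments in all. With 2 of the 3 D4 libraries below the floor, its D4 level was 2.38% of that in MEF, with a counting interval of 0.885 to 5.37%. All 3 D4_DUX libraries were below the floor for Aif1, and the change from D4 did not pass the test (log2 fold change -0.06, SE 0.08, adjusted p = 0.612).

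Cd53, a tetraspanin, fell least of these from MEF to D4. Its values were 14.4, 13.7 and 13.98 FPKM in MEF, 4.36, 4.54 and 4.15 in D4, 1.76, 2.28 and 2.30 in D4_DUX and 5.49, 6.77 and 4.87 in iPSC. At the other end, Coro1a, an actin-binding protein of leukocytes, fell 14.3-fold, from 9.81 ± 0.257 to 0.688 ± 0.166 FPKM, and Lcp1, the leukocyte plastin, fell 10.2-fold, from 13.2 ± 0.525 to 1.29 ± 0.0377 FPKM. Itgam, the CD11b integrin chain, was at 17.3 ± 0.550 in MEF, 3.53 ± 0.0806 in D4 and 0.837 ± 0.0303 in D4_DUX. Cd84, an adhesion receptor of the SLAM family, was at 2.48 ± 0.0982, 0.487 ± 0.0220 and 0.144 ± 0.0220 FPKM in the same groups. Ms4a6c, a membrane protein of the MS4A family, was at 3.09 ± 0.352, 0.521 ± 0.0393 and 0.288 ± 0.0729 FPKM. The call of Ms4a6c in D4_DUX against D4 was lost without D4_DUX replicate 1 (adjusted p = 0.0992) or 2 (0.0877) and without D4 replicate 2 (0.0804) or 3 (0.0747). It was also lost in limma with no filter on low values (adjusted p = 0.0867) and with quantile normalization (0.0820).

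Laptm5, a lysosomal protein of blood cells (ENSMUSG00000028581, chromosome 4, 130913125 to 130936141), was the 1 member higher in iPSC than in MEF. It was at 15.3, 16.9 and 15.2 FPKM in MEF, 3.97, 4.73 and 4.70 in D4, 3.11, 3.49 and 3.33 in D4_DUX and 31.4, 36.3 and 40.4 in iPSC. Every iPSC library exceeded every other library, a rise of 2.28-fold over MEF (log2 fold change 1.13, SE 0.09, adjusted p = 1.47e-07), while from D4 to D4_DUX it fell by 1.35-fold (log2 fold change -0.34, SE 0.09, adjusted p = 0.0107).

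The genes of the lysosome, of microbial killing and of secretion include the most abundant member. Lyz2, the macrophage lysozyme (ENSMUSG00000069516, chromosome 10, 117277331 to 117282321), was at 1285, 1295 and 1328 FPKM in MEF, 148, 164 and 135 in D4, 30.6, 29.99 and 32.4 in D4_DUX and 107, 119 and 84.0 in iPSC. It made up 61.2 to 62.6% of the summed FPKM of the module in MEF, 49.0 to 50.7% in D4, 36.9 to 37.6% in D4_DUX and 37.4 to 42.5% in iPSC, with no overlap of MEF, D4 and D4_DUX. The summed level of the other 37 genes was 799.6 ± 20.0 FPKM in MEF, 149 ± 12.7 in D4, 52.0 ± 1.88 in D4_DUX and 149.6 ± 10.3 in iPSC. Lyz1, a near-identical copy of Lyz2 that could share fragments with it, was at 7.14 FPKM or less in every library.

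Ctss, the cathepsin of antigen processing, was at 46.1, 45.5 and 44.8 FPKM in MEF, 7.52, 8.61 and 6.51 in D4, 1.34, 1.04 and 2.11 in D4_DUX and 6.31, 7.599 and 5.64 in iPSC. Cybb, the catalytic subunit of the phagocyte oxidase, was at 19.9 ± 1.09, 4.08 ± 0.0629, 0.827 ± 0.0328 and 1.59 ± 0.263 FPKM in MEF, D4, D4_DUX and iPSC. Mpeg1, the pore-forming protein perforin-2, was at 26.0 ± 0.725, 3.62 ± 0.200, 1.22 ± 0.0821 and 2.72 ± 0.0948 FPKM in the same order. Ctss, Cybb and Mpeg1 kept the order MEF, D4, D4_DUX without overlap. Slc11a1, a metal transporter of the phagosome, and Pld4, an endolysosomal nuclease, fell 9.70- and 9.57-fold from MEF to D4.

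Wfdc17, a small secreted protein of the whey acidic protein family (ENSMUSG00000069792, chromosome 11, 83703991 to 83706268), fell least from MEF to D4 after Gpnmb. It was at 82.3, 88.8 and 96.3 FPKM in MEF, 33.7, 39.9 and 31.9 in D4, 6.32, 6.42 and 8.62 in D4_DUX and 11.8, 13.1 and 8.75 in iPSC. The fall was 2.53-fold from MEF to D4 and 4.94-fold from D4 to D4_DUX.

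Gpnmb, a glycoprotein of lysosomes and melanosomes (ENSMUSG00000029816, chromosome 6, 49036546 to 49070929), ran against the other members between D4 and D4_DUX. It was at 12.5, 12.3 and 12.1 FPKM in MEF, 9.75, 10.4 and 9.92 in D4, 14.5, 14.3 and 14.4 in D4_DUX and 4.61, 5.62 and 4.71 in iPSC. The 4 groups did not overlap. Gpnmb fell by 1.23-fold from MEF to D4 (log2 fold change -0.27, SE 0.06, adjusted p = 0.00128) and rose by 1.43-fold from D4 to D4_DUX (log2 fold change 0.48, SE 0.06, adjusted p = 8.37e-05).

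**Figure D2:**
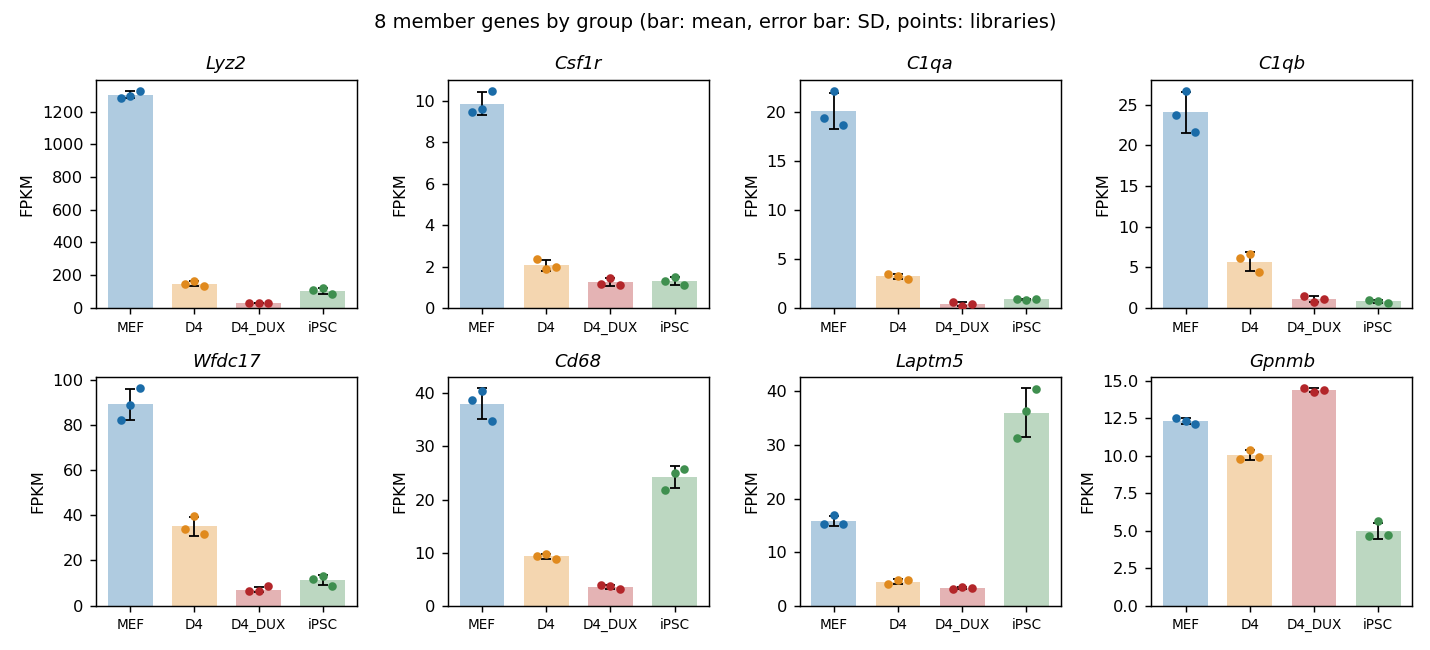
FPKM of 8 member genes by group, on linear axes from 0, with bars for the mean, error bars for the SD and points for the 3 libraries. Lyz2, Csf1r, C1qa, C1qb and Wfdc17 are highest in MEF, whereas Cd68 reaches 24.2 and Laptm5 36.1 FPKM in iPSC and Gpnmb is highest in D4_DUX.

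Whether the genes fell by 1 common ratio was tested by setting each gene, in every library, against the mean of the other 37 on log2(FPKM + 0.1), and fitting the same limma model. The difference so obtained is called the departure: above 0 the gene fell less than its peers, below 0 it fell more. The mean level of the 38 genes on this scale was 3.84 ± 0.03 in MEF, 1.20 ± 0.09 in D4, -0.32 ± 0.07 in D4_DUX and 0.99 ± 0.17 in iPSC. This gave a common ratio of 6.21-fold from MEF to D4, 2.87-fold from D4 to D4_DUX and 7.19-fold from MEF to iPSC. Across the 14 other settings these ratios ran from 4.91 to 6.91, from 2.20 to 3.57 and from 5.53 to 8.38. The added 0.1 still understates the falls of the lowest genes. On mean FPKM with nothing added, the median fall of the 38 genes was 6.69-, 3.80- and 8.12-fold.

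One ratio did not cover all members in any comparison. The log2 changes of the 38 genes had an SD of 0.77 from MEF to D4, 0.76 from D4 to D4_DUX and 1.20 from MEF to iPSC, against a median SE of 0.14, 0.14 and 0.16 for a single departure. From MEF to D4, 28 of 38 genes departed from the common ratio at an adjusted p under 0.05, 14 on each side, where 98.2% of all genes tested differed from it, 97.5% on the side of a smaller fall or a rise and 0.742% on the side of a larger fall. From D4 to D4_DUX 28 departed, 12 falling less and 16 more, where 97.7% of all genes differed, 97.4% and 0.339% on these sides. In iPSC against MEF 27 departed, 13 falling less and 14 more, where 98.2% of all genes differed, 97.5% and 0.695% on these sides. Because nearly all genes differ from this ratio, the adjustment hardly changes a p, and the reference itself is moved by members that depart, so sizes are given beside the calls.

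Most departures were small from MEF to D4. There 26 of 38 genes lay within 1.5-fold of the common ratio and 32 within 2-fold, against 18 and 31 from D4 to D4_DUX and 20 and 25 in iPSC against MEF. Departures that passed with at least 2-fold numbered 6, 7 and 13. Of the genes called, 14 of 28, 16 of 28 and 19 of 27 kept call and direction in every alternative in which they could be fitted.

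From MEF to D4, the 14 that kept it were 7 that fell less and 7 that fell more. Gpnmb fell least, 5.30-fold less than its peers (departure 2.40, SE 0.06, adjusted p = 1.21e-11 in limma). Wfdc17 (1.33), Cd53 (0.99), Laptm5 (0.85), Trem2 (0.80), Cd68 (0.63) and Cd84 (0.51) followed. Cx3cr1 fell most, 3.59-fold more than its peers (departure -1.85, SE 0.20), a size that ran from -0.49 to -3.09 over the alternatives, with a D4 level of 21 fragments in all. Marco (-1.31), Coro1a (-1.07), Msr1 (-0.91), Lcp1 (-0.64), Adgre1 (-0.53) and Lyz2 (-0.51) also fell more. Aif1 had -1.35, but its call was lost with a pseudocount of 0.5.

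From D4 to D4_DUX, 7 genes kept a smaller fall and 9 a larger one. Gpnmb rose while its peers fell (departure 2.09, SE 0.06), and Laptm5 (1.13), Fcgr2b (0.85), Ms4a6c (0.85), Csf1r (0.84), Trem2 (0.81) and Cd53 (0.52) fell less. Cd52 (-1.44, SE 0.13), C1qa (-1.26, SE 0.22) and Fcer1g (-1.01, SE 0.09) fell more, with Marco (-0.81), Ctss (-0.81), Wfdc17 (-0.80), Lyz2 (-0.76), Cybb (-0.67) and C1qc (-0.58). Wfdc17 thus fell less than its peers in 1 comparison and more in the other, which share the D4 libraries. Aif1 and Cx3cr1 had departures of 1.08 and 1.21 that were not called on recovered fragments (adjusted p = 0.928 and 0.246).

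In iPSC against MEF the spread was widest, and this comparison was added after the values were seen. Laptm5 had a departure of 4.13 (SE 0.13) and Cd68 of 2.26 (SE 0.14), and Gpnmb (1.60), Cd53 (1.59), Mrc1 (1.33), Fcgr3 (1.27) and Trem2 (1.14) also fell less. The C1q chains fell more than their peers, C1qb by 3.86-fold (-1.95, SE 0.21), C1qc by 3.50-fold and C1qa by 2.94-fold. Cx3cr1 (-2.05), Cd52 (-1.65) and Marco (-1.63) were on the same side. Leaving Laptm5, Cd68 and Gpnmb out of the reference and the count left 23 of 35 genes departing from MEF to D4, 25 from D4 to D4_DUX and 23 in iPSC against MEF.

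**Figure D3:**
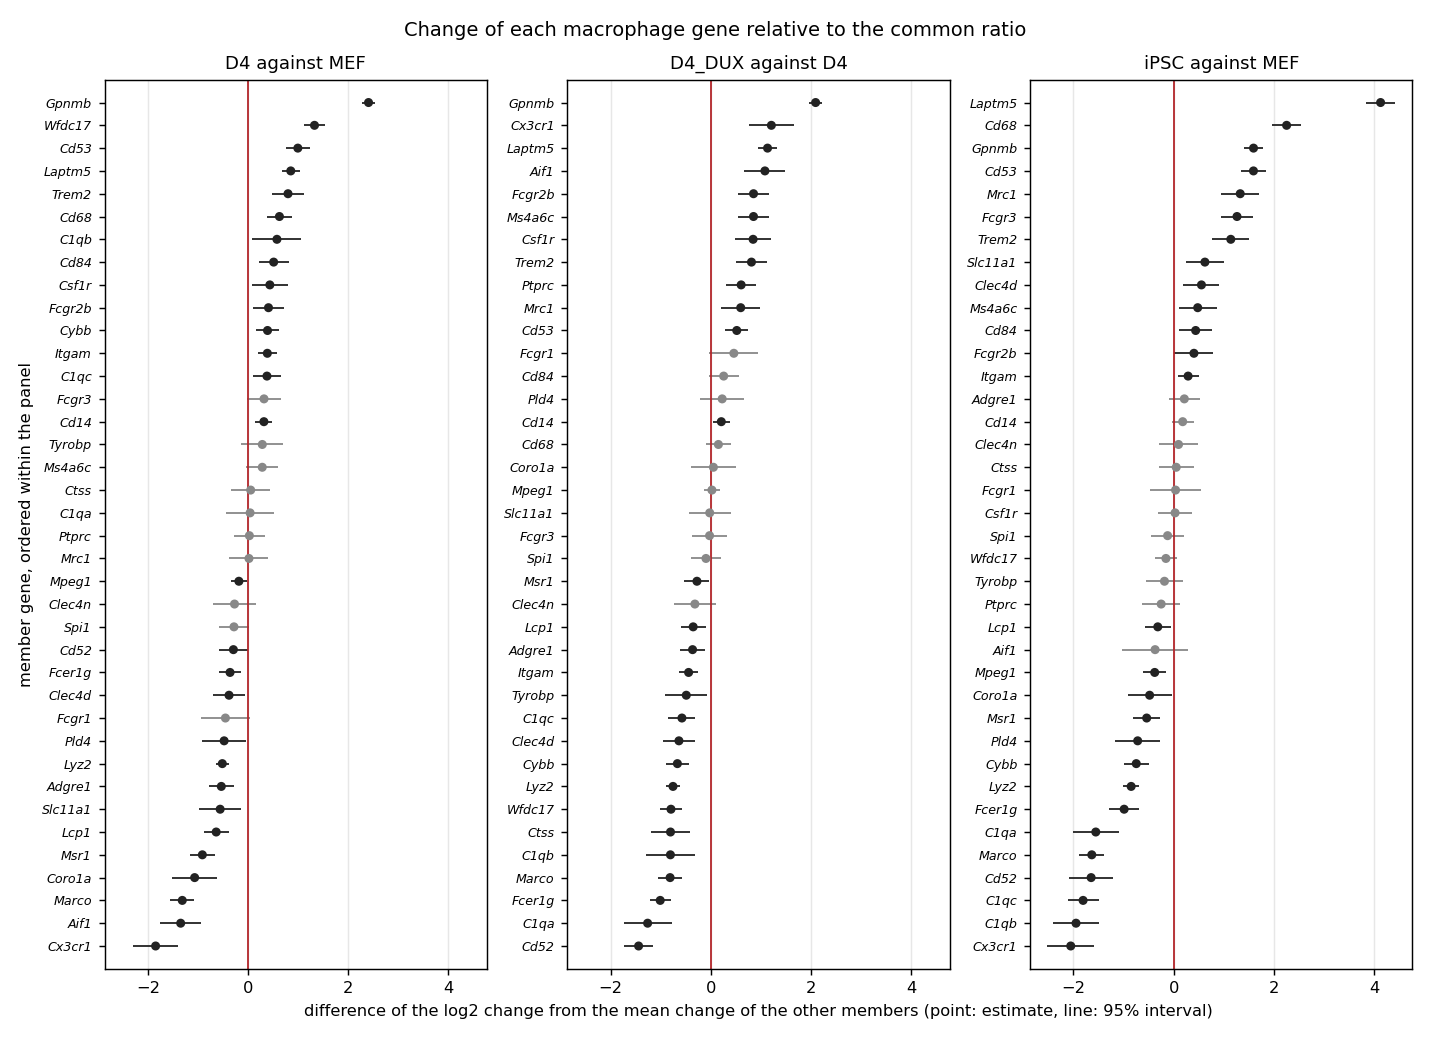
Departure of each of the 38 genes from the mean log2 change of the other 37, in 3 comparisons, as points with 95% intervals from limma; black marks an adjusted p under 0.05, grey the rest, and the red line the common ratio. Genes spread to both sides of the line in each panel, from -1.85 to 2.40 in D4 against MEF and up to 4.13 for Laptm5 in iPSC.

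Against the day 4 groups, iPSC held more of these genes than D4_DUX did. The iPSC libraries lay above D4_DUX without overlap for 32 of 38 genes, where 48.9% of all genes tested did so, and below it for 1, Gpnmb, where 34.9% did so. Against D4 they lay above for 7 genes and below for 18, where 48.6% and 33.8% of all genes did so. Beside this, the iPSC libraries also held fibroblast identity genes, 1082 to 1350.2 FPKM summed over 10 genes, with Postn at 40.2 ± 9.67. The same sum was 6676 to 6869 FPKM in MEF. Of these 10 genes, 9 were lower and 1 higher in iPSC than in MEF (median log2 fold change -2.47), beside 31.2% and 51% of all genes tested. Their part in the macrophage level of iPSC was not tested. Replicates differed too: iPSC replicate 3 was the lowest of its group for 23 of 38 genes, and D4 replicate 2 the highest of its group for 21.

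Other genes of macrophages and myeloid cells also fell in D4. Of 60 further genes on a list of receptors, signalling proteins and chemokines, 52 were tested. All 52 were lower in D4 than in MEF, where 27.6% of all genes tested were lower. In D4_DUX 35 were lower and 1 higher than in D4, beside 15.4% and 20.1% of all genes. In iPSC 46 were lower and 3 higher than in MEF, beside 31.2% and 51% of all genes. The median log2 fold changes of the 52 were -1.34, -0.28 and -1.55. Some of the 52, Vav1, Irf8 and Btk among them, reached 1 FPKM only in MEF and so had to be lower elsewhere. This list too was chosen with earlier results of these data known. From MEF to D4 Vav1, a signalling protein of blood cells, fell from 5.84 ± 0.380 to 0.515 ± 0.0314 FPKM. Nckap1l fell from 10.55 ± 0.223 to 1.33 ± 0.0687, and C3ar1, a complement receptor, from 15.4 ± 1.32 to 1.72 ± 0.100.

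Genes of activated and lipid-loaded macrophages were lower in D4 than in MEF in 13 of 13 cases, beside 27.6% of all genes tested. In D4_DUX 12 were lower than in D4, beside 15.4%. In iPSC 10 were lower and 2 higher than in MEF, beside 31.2% and 51%. The 14 genes listed summed to 1242 to 1332 FPKM in MEF and 1365 to 1461 in iPSC. From MEF to D4 Tnf, an inflammatory cytokine, fell from 13.0 ± 0.532 to 0.871 ± 0.0537 FPKM. Lpl, a lipase also made by other cells, fell from 19.8 ± 0.612 to 3.95 ± 0.207, and Mmp12, the macrophage elastase, from 15.7 ± 0.385 to 1.58 ± 0.113. Among genes of resident and monocyte-derived macrophages, 6 of the 11 in the table stayed under 0.5 FPKM in every library. Of the 5 tested, Siglec1, a sialic acid receptor, fell from 9.04 ± 0.247 to 1.09 ± 0.112 FPKM, Plac8 fell from 35.5 ± 5.08 to 6.55 ± 0.651, and Ly6c2 rose from 0.0992 ± 0.0128 to 0.986 ± 0.0558. Class II genes did not move as 1 group. Cd74 fell from 2.23 ± 0.269 to 0.357 ± 0.0692 FPKM and H2-DMa had a log2 fold change of -0.27, while H2-DMb1 rose from 1.17 ± 0.0164 to 5.13 ± 0.117. Siglec1 and Cd74 passed the filter only with the help of MEF.

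Of the macrophage growth factors, Csf1 fell slightly from MEF to D4 while Il34 and Csf2 rose. Csf1 was at 56.2, 58.7 and 57.3 FPKM in MEF, 48.7, 51.9 and 47.2 in D4, 39.6, 41.2 and 39.2 in D4_DUX and 85.5, 73.3 and 62.9 in iPSC. It fell by 0.22 on the log2 scale from MEF to D4 (adjusted p = 0.0439 in limma) and by 0.29 from D4 to D4_DUX (adjusted p = 0.0197). Il34 rose from 1.41 ± 0.104 FPKM in MEF to 4.43 ± 0.295 in D4 (log2 fold change 1.17) and was at 4.41 ± 0.179 in D4_DUX. Csf2 was at 0.279 ± 0.0589 FPKM in MEF, 1.01 ± 0.243 in D4, 0.202 ± 0.104 in D4_DUX and 10.7 ± 1.81 in iPSC.

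Markers of other cell types were set beside the module. The 14 core macrophage genes summed to 1574 to 1619 FPKM in MEF, 185 to 221 in D4, 47.9 to 49.3 in D4_DUX and 173 to 211 in iPSC. Neutrophil markers summed to 2.93 to 3.64 FPKM in MEF over 10 genes, 8 of which stayed under 0.5 FPKM in every library. S100a8 and Camp, the 2 that were tested, fell in D4 (log2 fold change -1.23 and -0.30). Lymphocyte markers summed to 1.94 to 2.14 FPKM in MEF and 18.5 to 19.3 in iPSC, where Lck was at 13.1 ± 0.514 and Cd247 at 4.02 ± 0.0512. Mast cell markers summed to 0.810 to 0.903 FPKM in MEF and 7.45 to 8.85 in iPSC, where Kit was at 7.07 ± 0.681; Gata2 rose in D4 (log2 fold change 0.72).

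Osteoclast markers, of a cell related to macrophages, had 5 of 8 genes under 0.5 FPKM in every library. Ctsk, which fibroblasts also make, was at 30.8 ± 1.30 FPKM in MEF and 46.6 ± 0.813 in D4_DUX, and Acp5 and Nfatc1 fell in D4 (log2 fold change -0.77 and -0.37). Endothelial markers summed to 2.64 to 3.39 FPKM in MEF and 14.5 to 15.1 in D4, of which Tek made up 13.503 ± 0.307. Erythroid and megakaryocyte markers summed to 8.46 to 11.4 FPKM in MEF, led by Pf4, a platelet chemokine, at 6.38 ± 1.12 in MEF, 5.21 ± 0.903 in D4 and 0.795 ± 0.164 in D4_DUX. Of the 10 fibroblast identity genes 8 fell and 2 rose in D4 against MEF, beside 27.6% and 34.2% of all genes tested. In D4_DUX against D4 6 fell, beside 15.4% of all genes, and the medians were -0.88 and -0.39. Postn, a matrix protein, fell from 369 ± 11.3 to 45.2 ± 1.83 FPKM, and Pdgfra from 85.2 ± 4.10 to 17.5 ± 1.53. The risers, named after their values were seen, were Dcn, a matrix proteoglycan, from 186 ± 10.2 to 267 ± 10.6 FPKM, and Thy1, a surface antigen, from 161 ± 1.23 to 278 ± 2.90. The part of these changes in the fall of the macrophage genes was not tested.

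**Figure D4:**
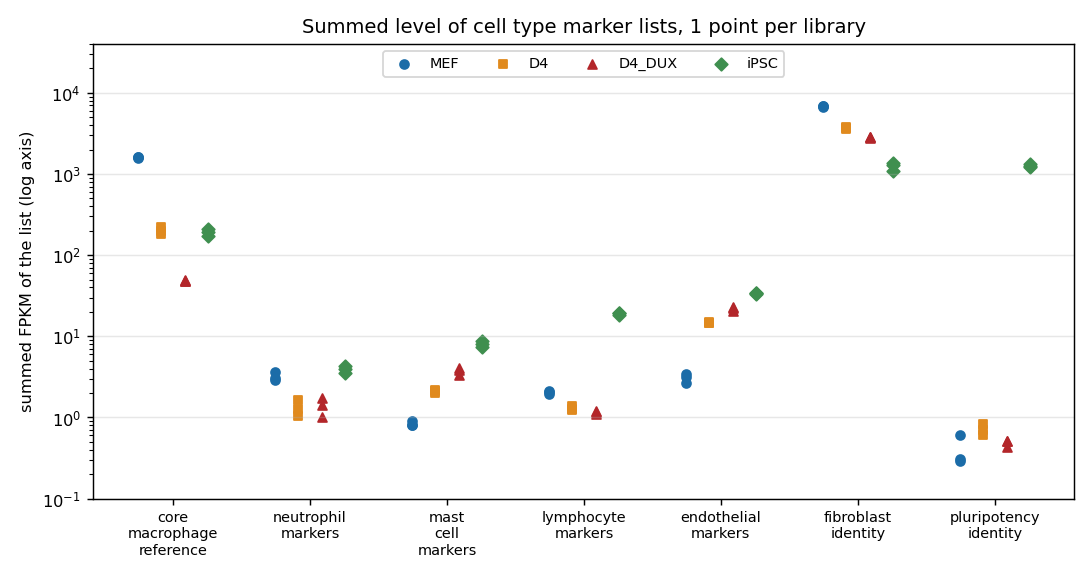
Summed FPKM of 7 marker lists in each of the 12 libraries, on a log axis, with 1 point per library and colour for the group. The core macrophage list drops from 1574 to 1619 FPKM in MEF to 47.9 to 49.3 in D4_DUX, while neutrophil markers stay below 5 FPKM in all groups.

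Some members share exons with other annotated genes, and the sources used here do not say whether counting used the strand. Gm49368 covers 68.7% of the exon bases of Itgam on the same strand and was at 13.6 FPKM in MEF, so the Itgam values may not hold all of its fragments. On the opposite strand, BE692007 covers 53.1% of Ms4a6c, Hmgxb3 15.1% of Csf1r and Crybg2 14.5% of Cd52. Gm15629, also on the opposite strand, covers only 2.30% of Lcp1. It was at 9.48 FPKM in MEF, 1.03 in D4, 0.217 in D4_DUX and 0.939 in iPSC, where Lcp1 was at 13.2, 1.29, 0.282 and 1.40. Whether opposite-strand fragments were counted was not tested. Hmgxb3 was at 3.92 FPKM in MEF, 4.25 in D4, 4.76 in D4_DUX and 6.35 in iPSC, values above those of Csf1r outside MEF. Its part in the smaller fall of Csf1r was not tested.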

How the data were processed

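RNA-seq was given for 12 mouse libraries in 4 groups of 3. The fibroblasts came from 13.5 dpc embryos, per the labels' protocols. The authors deposited FPKM values for 40384 Ensembl gene IDs, made on genome build mm10 per the submitters' processing notes; the aligner, counter and strand setting are not stated in the labels. GENCODE M21 gave symbols for 99.6% of IDs. The 38 members and all marker lists were chosen with earlier results of these data known.

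Genes with at least 1 FPKM in at least 3 libraries were kept (17114). Group means were compared with limma 3.58.1 in R 4.3.3 on log2(FPKM + 1), with a variance prior that follows the mean and Benjamini-Hochberg adjustment over all genes kept. The common-ratio fit used log2(FPKM + 0.1) in the 9 libraries of MEF, D4 and D4_DUX, and all 12 for iPSC. Named genes are all members, 3 growth factors, and up to 3 genes of each other list with the smallest adjusted p in D4 against MEF. Fragments were recovered from FPKM steps and exon length: of the low values examined, 8801 to 11769 per library, 42.8 to 45.3% were whole within 0.01 and 70.2 to 72.9% multiples of 0.5. No column was a copy of another (0 of 66 pairs). The fits were also run on simulated data, made on log2(FPKM + 1) only. That run does not check the departures, which used log2(FPKM + 0.1). Alternatives changed the pseudocount, filter, scaling, reference and libraries used.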

Additional observations from a re-analysis of the deposited data

How the results depend on the processing

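The counts of members called lower stayed within 1.5 times of those reported under every alternative, with the fewest, 29, 28 and 28 for the comparisons D4 against MEF, D4_DUX against D4 and iPSC against MEF, under the filter of at least 5 FPKM, which tests fewer members. Leaving out 1 library gave 38 in D4 against MEF, 30 to 34 in D4_DUX against D4 and 37 in iPSC against MEF. The counts of departing members ranged over 22 to 27, 26 to 28 and 23 to 27 with 1 library left out. With genes of at least 5 FPKM on average, 15, 16 and 13 members departed, of 21, 21 and 20 fitted. The departure of Aif1 in D4_DUX against D4, which rests on levels under the floor, was -0.12 with a pseudocount of 0.01 against 1.08 as reported. Median-ratio scaling moved the median of all genes in iPSC against MEF from 0.21 to 0.03 and quantile normalization to -0.07, and 37 members stayed lower under both.

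Replicate numbers did not pair the libraries: 0 of 18 same-numbered pairs had deviations correlated above 0.1 (-0.146 to 0.0699), and 4 of 12 libraries correlated best with their own number. With the replicate number as a block, 38, 35 and 37 members were lower and 28, 29 and 26 departed. Depth limits Aif1 and Cx3cr1 most, with libraries outside MEF at or below the floor. In D4_DUX the lowest library held 6.51 fragments for Fcgr1 and C1qa, 8.01 for Coro1a, 9.51 for Cd52 and 11.5 for Pld4.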
